A study of Mus musculus with 66 samples.

Results

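The mitosis and kinetochore genes described here are 42 listed mouse genes whose products condense, attach and separate the chromosomes and divide the cell. The members were found by symbol through their Ensembl identifiers, and all 42 were among the 39179 genes of the count tables. By role they comprise 7 genes of the cyclins, Cdk1 and its regulators, 4 partners and substrates of the anaphase-promoting complex, 6 mitotic kinases and chromosomal passengers, 5 spindle checkpoint genes, 7 kinetochore and centromere genes, 6 spindle motors and microtubule proteins, 5 cytokinesis genes and 2 genes of the mitotic chromosome. Expression was measured by RNA sequencing in BC57, a mouse bladder cancer cell line grown in culture with serum, and in mouse normal urothelium (MNU), the epithelium that lines the bladder, taken from 9 mice. Each kind of material was kept fresh frozen (FF) or fixed in formalin for 24 hours and embedded in paraffin (FFPE), and the RNA of the FF and FFPE parts was extracted with different kits, so that fixation and extraction cannot be told apart. The 66 libraries form 22 groups of 3 by sample, preservation, kit and RNA input. Both preservations were sequenced with Ovation SoLo (random priming of total RNA, ribosomal sequences depleted) at inputs of 50 pg, 250 pg and 2 ng and with SMARTer Pico (template switching on total RNA) at 250 pg and 2 ng, and FF RNA alone with TruSeq poly(A) at 1 µg. BC57 is a single cell line whose pellet was divided between both preservations. The sources used here do not give the strain or age of the mice or say how the material of 9 mice was combined, and nothing in the labels places the 3 libraries of a group in separate mice or cultures, so that all p-values measure the spread between these libraries, which may be technical.

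At entry into mitosis, cyclin B binds and activates Cdk1, Foxm1 and related regulators switch on the late cell cycle genes, and the Aurora and Polo kinases act on chromosomes and spindle. Microtubules attach to chromosomes through the kinetochore, which is built on Cenpa nucleosomes and holds the Ndc80 complex, while the spindle checkpoint keeps the anaphase-promoting complex inactive until every kinetochore is attached. The complex, with Cdc20 and Ube2c, then marks securin (Pttg1) and cyclin B for destruction, separase (Espl1) opens cohesin, and the central spindle and contractile ring divide the cell. Most of these genes are transcribed only in cycling cells, and the bladder epithelium of adult mice renews slowly.

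Total counts ran from 18499591 to 36187226 in the 6 poly(A) libraries, from 928722 to 4706030 in the 36 Ovation libraries and from 651879 to 7152648 in the 24 SMARTer libraries. Several libraries stood apart from their repeats, most of all the third MNU SMARTer FFPE libraries. At 2 ng this library had 780106 counts on 30912 genes with a count, against 19739 and 20100 genes in its repeats, and at 250 pg it had 651879 counts. The third BC57 SMARTer FFPE library at 2 ng had 26973 genes with a count against 18794 and 18855, and the third MNU Ovation FF library at 250 pg had 13253 against 17676 and 18223, with 19 members seen against 39 in both repeats. The summed level of 10 urothelial markers was 933 and 831 CPM (counts scaled to a common library total of 1e+06) in the third MNU SMARTer FFPE libraries at 2 ng and 250 pg. It was 3440.55 to 3692.66 CPM in the 4 other MNU SMARTer FFPE libraries. In the poly(A) libraries the urothelial markers summed to 9848 to 10670 CPM in MNU and 714 to 733 CPM in BC57, where 9 of 10 were lower and Krt14 was higher. The MNU libraries also held fibroblast markers (8 of 8 higher in MNU, sums of 10260 to 10905 CPM against 12.4 to 14.01 CPM in BC57), and smooth muscle and endothelial markers (8 of 8 each higher in MNU). In bulk RNA fewer dividing cells and less RNA per cell cannot be told apart, and the part of the other cell types in the results below was not tested.

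In the poly(A) libraries, 41 of the 42 members were higher in BC57 cells and 1, Pttg1, was lower, by the edgeR quasi-likelihood test at an adjusted p under 0.05. Over all 17934 genes tested, 42.8% were higher and 48.5% lower. The median log2 fold change was 5.16 over the members and -0.12 over all genes. The summed level of the members was 6758 to 6884 CPM in the BC57 libraries and 321 to 333 CPM in the MNU libraries. Repeat libraries differed little: the median coefficient of variation of a member was 2.04% in BC57 and 9.85% in MNU. Levels are given as plain CPM, and fold changes come from counts scaled by TMM (trimmed mean of M values), on which a fold change in this comparison is 0.14 higher on the log2 scale than on plain totals.

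**Figure D1:**
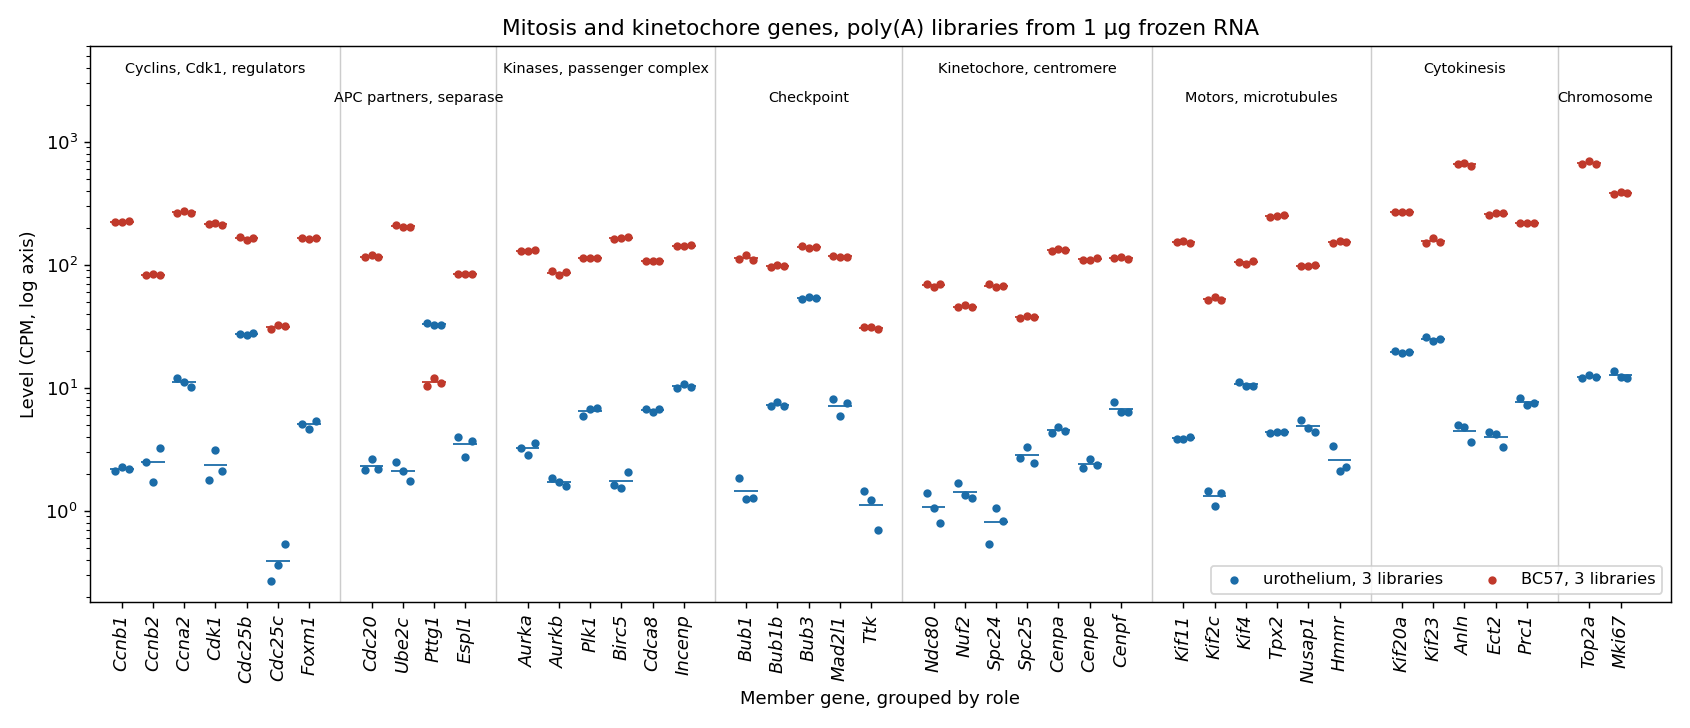
Level of each of the 42 members in the 3 BC57 and 3 MNU poly(A) libraries (CPM per library, log axis; 1 point per library, members grouped by role). The BC57 points lie above the MNU points for every member except Pttg1, whose order is the opposite, and the gap is narrowest for Bub3.

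All 7 genes of the cyclins, Cdk1 and its regulators were higher in BC57. Cyclin B1, Ccnb1, which activates Cdk1 at mitotic entry, stood at 221.2, 223.3 and 228.1 CPM in the BC57 libraries and at 2.11, 2.27 and 2.19 CPM in MNU. The 2 groups of libraries did not overlap, and the log2 fold change of 6.81 (SE 0.0642, edgeR adjusted p = 5.07e-26) was the largest of this role. Cdk1 itself stood at 214 ± 4.58 against 2.34 ± 0.692 CPM (SD, n = 3; 6.63). The smallest change of the role was that of Cdc25b, a phosphatase that activates Cdk1, at 169, 160 and 164 CPM against 27.57, 26.99 and 27.86 CPM in MNU (2.72, SE 0.0460). Its relative Cdc25c, at 31.4 ± 1.07 against 0.391 ± 0.136 CPM, changed by 6.36. The BC57 libraries were above the MNU libraries for each of these genes.

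Among the 4 genes of anaphase onset, Ube2c, Cdc20 and Espl1 were higher and Pttg1 was lower. Ube2c, the ubiquitin-conjugating enzyme that works with the anaphase-promoting complex, stood at 209, 204 and 202 CPM in BC57 and at 2.49, 2.10 and 1.74 CPM in MNU (6.78, SE 0.0711). Pttg1, which encodes securin, the inhibitor of separase, stood at 10.34, 12.05 and 10.998 CPM in BC57 and at 33.5, 32.2 and 32.4 CPM in MNU. Every BC57 library was below every MNU library, with a log2 fold change of -1.43 (SE 0.0631, edgeR adjusted p = 5.80e-15). Espl1, the protease that securin holds inactive, went the other way at 83.6 ± 0.299 against 3.49 ± 0.653 CPM (4.73).

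All 6 kinases and chromosomal passengers were higher. Birc5 (survivin) had the largest change of this role, at 163, 165 and 168 CPM against 1.62, 1.54 and 2.06 CPM (6.68, SE 0.0744), and Incenp, the scaffold of the passenger complex, the smallest, at 143 ± 0.529 against 10.3 ± 0.453 CPM (3.94). The Aurora kinase genes Aurkb and Aurka changed by 5.81 and 5.46 and the Polo kinase gene Plk1 by 4.25. All 5 checkpoint genes were higher, from Bub1 (114 ± 5.52 against 1.45 ± 0.333 CPM; 6.47) to Bub3 (1.51). Bub3, which also serves in messenger RNA splicing, stood at 141, 137 and 138 CPM in BC57 and at 52.9, 54.7 and 53.3 CPM in MNU. The libraries did not overlap (SE 0.0412, edgeR adjusted p = 1.32e-18), and this was the smallest rise of the 41.

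All 7 kinetochore and centromere genes were higher, between Spc25 (3.88) and Spc24 (6.47), both subunits of the Ndc80 complex. Ndc80 stood at 69.3, 66.5 and 69.9 CPM in BC57 and at 1.41, 1.05 and 0.792 CPM in MNU (6.19, SE 0.0945), and the centromeric histone gene Cenpa at 130, 134 and 131 CPM against 4.32, 4.82 and 4.47 CPM (4.99, SE 0.0604). In both genes every BC57 library was above every MNU library. The 6 spindle genes were higher by between 3.45 (Kif4, a chromosome-bound kinesin) and 6.08 (Hmmr), with Tpx2, the activator of Aurora A, at 248 ± 4.59 against 4.37 ± 0.0410 CPM (5.96).

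The 5 cytokinesis genes held the largest change of all members. Anln, the contractile ring scaffold anillin, stood at 655, 669 and 637 CPM in BC57 and at 4.97, 4.77 and 3.65 CPM in MNU (7.36, SE 0.0681, edgeR adjusted p = 3.92e-26). Kif23, a kinesin of the central spindle, had the smallest change of this role, at 155.9 ± 7.40 against 25.04 ± 0.869 CPM (2.78). Both genes of the mitotic chromosome were higher in BC57. Top2a, topoisomerase II alpha, stood at 654, 695 and 664 CPM against 11.9, 12.8 and 12.2 CPM (5.90), and Mki67, which encodes the Ki-67 protein used as a proliferation marker, at 375.3, 392.4 and 382.7 CPM against 13.68, 12.14 and 12.01 CPM (5.08). Anln, Top2a and Mki67, which have long transcripts, together took 24.9% to 25.5% of the members' counts in BC57 and 8.68% to 9.22% in MNU.

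In mm10 (GENCODE M21) Ccnb1 lies at chr13:100778650-100786570, Cdk1 at chr10:69335146-69352938, Anln at chr9:22332012-22389188, Top2a at chr11:98992943-99024189, Mki67 at chr7:135689784-135716361, Bub3 at chr7:131560222-131571895 and Pttg1 at chr11:43420250-43426251. Several members share exon sequence with a gene on the opposite strand, and no source used here states whether counting used strand. The shared stretches are 1271 bases for Kif20a (with Cdc23), 911 for Prc1 (Rccd1), 832 for Kif4 (Pdzd11), 623 for Cdc25c (Gm3550), 592 for Ube2c (Tnnc2) and 510 for Ccna2 (Exosc9), and 53 to 232 bases for Cdca8, Nusap1, Cdc25b and Cdc20. Reads from such a pair cannot be told apart without strand. Ccnb1, Ccnb2 and Kif4 have annotated pseudogenes, and Foxm1 and Top2a share 144 and 122 exon bases with a gene on their own strand, so their counts are uncertain to that extent.

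Per kilobase of the principal transcript, which allows levels of different genes to be compared, the order of the members differed between the samples. In BC57 the highest levels were those of Ube2c (212 ± 3.65 CPM per kb), Birc5 (175 ± 2.53), Anln (142 ± 3.54) and Top2a (129 ± 4.10), whose library ranges did not overlap with each other, followed by Ccnb1 (90.1 ± 1.41), Ccna2 (89.9 ± 2.67) and Cenpa (89.5 ± 1.39), whose ranges overlapped. The lowest were Cenpf (10.2 ± 0.219), Ttk (10.7 ± 0.264) and Pttg1 (11.7 ± 0.908), at ranks 42, 41 and 40. In MNU Pttg1 was at rank 1 with 34.5 ± 0.745 CPM per kb, ahead of Bub3 (24.2), Cdc25b (8.89), Kif23 (7.37) and Kif20a (5.28), and Cdc25c was at rank 42 with 0.201. Bub3, Cdc25b and Kif23, the genes with the smallest rises in BC57, thus held ranks 2 to 4 in MNU.

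Promoters are shown because 41 members were higher together and many late cell cycle promoters carry 2 short motifs, the CCAAT box bound by the factor NF-Y and the cell cycle genes homology region (CHR). Of the 42 members, 34 matched the RefSeq promoter table (GRCm38.p6), in which each window runs from 250 bases before to 50 bases after the gene's start. The CCAAT box was searched as CCAAT and its reverse complement ATTGG, and the CHR as TTTGAA, its reverse complement TTCAAA and the palindrome TTCGAA, on both strands and with overlapping matches counted. A CCAAT box was found in 26 of the 34 members (76.47%) and in 37.92% of all 27025 promoters of the table. A CHR was found in 27 members (79.41%) and in 19.44% of all promoters, and both motifs in 24 members (70.59%) and 7.704% of all promoters. The windows below run from 120 bases before to 30 bases after the start, 5′ to 3′ on the gene's strand, with matches to either motif in capitals. They show the member of largest change with both motifs (Ube2c), the cyclin and kinase genes Ccnb2 and Cdk1, the anaphase activator gene Cdc20, the member that rose least (Bub3) and the one that fell (Pttg1). Ube2c lies at chr2:164769809-164769958 (+ strand), Ccnb2 at chr9:70421525-70421674 (-), Cdk1 at chr10:69352883-69353032 (-), Cdc20 at chr4:118437314-118437463 (-), Bub3 at chr7:131560250-131560399 (+) and Pttg1 at chr11:43425952-43426101 (-).
Ube2c: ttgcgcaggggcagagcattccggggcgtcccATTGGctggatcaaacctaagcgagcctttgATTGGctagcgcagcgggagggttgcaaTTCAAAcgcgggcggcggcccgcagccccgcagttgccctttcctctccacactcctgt
Ccnb2: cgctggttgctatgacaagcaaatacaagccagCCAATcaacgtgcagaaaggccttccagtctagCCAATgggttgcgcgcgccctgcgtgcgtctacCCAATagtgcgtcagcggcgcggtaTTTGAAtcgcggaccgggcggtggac
Cdk1: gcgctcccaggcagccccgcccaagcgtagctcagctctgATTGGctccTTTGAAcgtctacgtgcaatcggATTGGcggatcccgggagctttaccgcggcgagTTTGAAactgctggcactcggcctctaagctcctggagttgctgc
Cdc20: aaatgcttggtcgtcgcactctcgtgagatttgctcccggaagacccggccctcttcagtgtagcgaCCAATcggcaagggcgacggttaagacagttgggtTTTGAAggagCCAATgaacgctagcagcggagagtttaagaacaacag
Bub3: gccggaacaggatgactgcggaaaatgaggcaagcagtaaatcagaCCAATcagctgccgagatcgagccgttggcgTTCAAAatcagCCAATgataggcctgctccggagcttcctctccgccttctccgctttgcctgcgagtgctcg
Pttg1: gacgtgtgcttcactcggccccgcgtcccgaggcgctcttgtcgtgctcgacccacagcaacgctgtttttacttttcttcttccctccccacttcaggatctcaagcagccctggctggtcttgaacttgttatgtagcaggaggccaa

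In these windows Ube2c, Cdk1, Cdc20 and Bub3 hold 2 CCAAT boxes each and Ccnb2 holds 3, with 2 CHR matches in Cdk1 and 1 in each of the other 4. The Pttg1 window holds no match to either motif, which says only that these letters are not in it. The windows follow the RefSeq start, and those of Pttg1 and Bub3 lie wholly inside the GENCODE M21 gene, whose 5′ end is further upstream, so that they do not show the sequence before that end. The 24 members with both motifs changed by 1.51 to 6.78 in the poly(A) libraries (median 4.99), and the 5 with neither motif (Birc5, Mad2l1, Nuf2, Nusap1 and Pttg1) by -1.43 to 6.68 (median 4.50). The range with both motifs lay almost wholly within the range with neither, which reached lower only through Pttg1. Bub3, with both motifs, had the smallest rise, and Birc5, with neither, one of the largest. Ccnb1 and Cenpe had the CCAAT box alone and Anln, Kif2c and Ndc80 the CHR alone. A match is a description of the sequence and not a bound site.

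Other mitosis genes, from 5 lists of 131 genes in all, mostly moved the same way in poly(A): 119 were higher, 9 lower and 3 did not pass, with a median of 2.68. All 32 other kinetochore and centromere genes were higher, from Hjurp, the Cenpa chaperone (0.16), and Cenpc1 (0.75) to Kntc1 (6.32) and Ska1 (6.95). On plain totals Hjurp stood at 162 ± 1.49 CPM in BC57 and 160.5 ± 3.27 CPM in MNU, closer than on the TMM scale. Of 41 further spindle, kinase and cytokinesis genes, 40 were higher, among them Racgap1 (6.17) and Depdc1a (6.33), with Cdca2 at 0.51, and Cdc25a was lower (-0.18). Of 20 cohesin and condensin genes 19 were higher, with Sgo1 (5.54) and Cdca5 (5.64), the protectors of cohesin, at the top and Wapl (0.25) at the bottom, and Nipbl, the cohesin loader, was lower (-0.21).

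Of 17 genes of the anaphase-promoting complex and its partners, 14 were higher, led by the inhibitor Fbxo5 (3.22) and the conjugating enzyme gene Ube2s (2.58), and the small subunit genes Anapc13 (-1.004) and Cdc26 (-0.18) were lower. The list median of 1.15 was below that of the members. Of 21 transcriptional regulators of cell cycle genes 14 were higher, led by E2f7 (5.44) and Mybl2 (5.34), and 5 were lower, with Tfdp2 (-2.16) and the retinoblastoma gene Rb1 (-1.48) the lowest. Rb1 stood at 15.4 ± 0.999 CPM in BC57 and at 47.04 ± 3.87 CPM in MNU. In the other frozen conditions these lists gave 111 higher and 7 lower of 129 tested with Ovation at 2 ng (all genes 37.6% higher and 41.4% lower), 114 and 5 of 131 with SMARTer at 2 ng (36.3% and 41.2%), 95 and 4 of 131 with Ovation at 250 pg (21.6% and 26.4%), 100 and 5 of 131 with SMARTer at 250 pg (23.9% and 27.5%), and 86 and 4 of 128 with Ovation at 50 pg (20.2% and 25%).

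The comparison of BC57 with MNU was repeated in 10 low-input conditions. In frozen material 41 members were higher and 1 lower with Ovation at 2 ng (all genes 37.6% higher and 41.4% lower), with SMARTer at 2 ng (36.3% and 41.2%), with SMARTer at 250 pg (23.9% and 27.5%) and with Ovation at 50 pg (20.2% and 25%). With Ovation at 250 pg 41 were higher by edgeR and DESeq2 and 37 by limma, and none was lower by any of the 3 or at the unadjusted edgeR p of 0.05 (all genes 21.6% and 26.4%). In fixed material 41 were higher and 1 lower with Ovation at 2 ng (36.7% and 40.3%), 41 and 0 at 250 pg (24% and 28.2%; 1 lower at the unadjusted p, none by DESeq2 or limma) and 39 and 0 at 50 pg (14.7% and 18.8%; none lower at the unadjusted p or by DESeq2 or limma). The median log2 fold change of the members lay between 4.61 and 5.11 in these 8 conditions. The gene Ccnb1, for example, stood at 237, 230 and 212 CPM in the BC57 Ovation FF 2 ng libraries against 1.63, 2.06 and 2.62 CPM in MNU, and at 200, 206 and 195 CPM in the BC57 Ovation FFPE 50 pg libraries against 0, 0.983 and 0 CPM. The libraries of both samples stayed apart for Ccnb1 in both conditions.

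**Figure D2:**
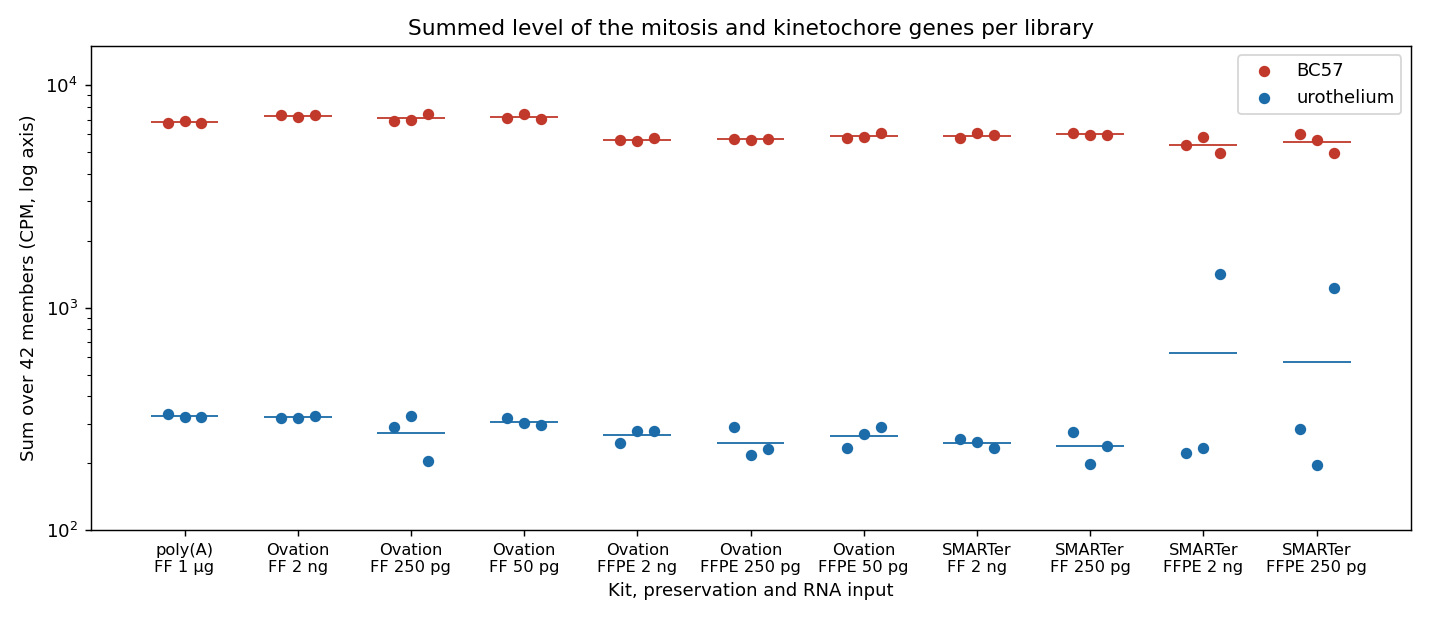
Summed CPM of the 42 members in each of the 66 libraries (log axis; 1 point per library, by kit, preservation, input and sample). BC57 libraries lie between 4939 and 7420 CPM in every condition and MNU libraries between 196 and 333 CPM, apart from the third SMARTer FFPE libraries at 1422 and 1226 CPM.

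With SMARTer on fixed RNA fewer members passed. At 2 ng 28 members were higher, 1 lower and 13 did not pass (all genes 13.7% higher and 16.3% lower), with a median of 3.48. At 250 pg 14 of the 40 members tested were higher and 0 lower (3.8% and 5.58%; none lower at the unadjusted p or by DESeq2 or limma). The third MNU libraries, of low total count, held a high summed CPM of the members here, at 1422 CPM at 2 ng and 1226 CPM at 250 pg. Their member counts were 1109 against 799 and 793 in the repeats at 2 ng, and 799 against 926 and 401 at 250 pg. At 250 pg some members, such as Ccna2 and Kif20a, had no count in the third library. Ccnb1 stood at 0.556, 2.95 and 47.4 CPM in the MNU libraries at 2 ng, against 90.4, 105 and 126 CPM in BC57, and its change of 3.35 did not pass (edgeR adjusted p = 0.0680). Only the third MNU library was high, and the groups still did not overlap. Without the third library of each group, 41 members were higher and 1 lower at 2 ng, and Ccnb1 changed by 6.0 (edgeR adjusted p = 5.27e-11). At 250 pg 34 of 41 members tested were then higher. Leaving out other libraries lowered the count to 9 without BC57 library 1, 11 without BC57 library 2 or MNU library 1 and 12 without MNU library 2. At 250 pg the count was 38 without MNU library 3, 27 with no filter on low counts and 5 to 8 without any of the other libraries in turn. The shares of all genes above belong to the main fits of all libraries. Those of these reduced or unfiltered fits are not given here, so the member counts cannot be set against them.

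At low input many members had few or no counts in MNU, so that the fitted folds there are not bounded and a floor of 3 counts over the group is used. Cdk1 had 900 counts in the BC57 Ovation FF 50 pg libraries and none in MNU, which makes it at least 444-fold higher in BC57. Foxm1 (1374 counts) and Bub1 (1310 counts) had none in MNU with Ovation FFPE at 50 pg and were at least 387-fold and 369-fold higher. Ccnb1, with 2077 counts against none in Ovation FFPE at 250 pg, was at least 598-fold higher. Spc24 had 1 to 3 counts in 7 conditions, such as 931 counts against 3 in SMARTer FF at 2 ng, a ratio of 307 (95% counting interval 105 to 1489). Such intervals and floors cover counting error only.

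**Figure D3:**
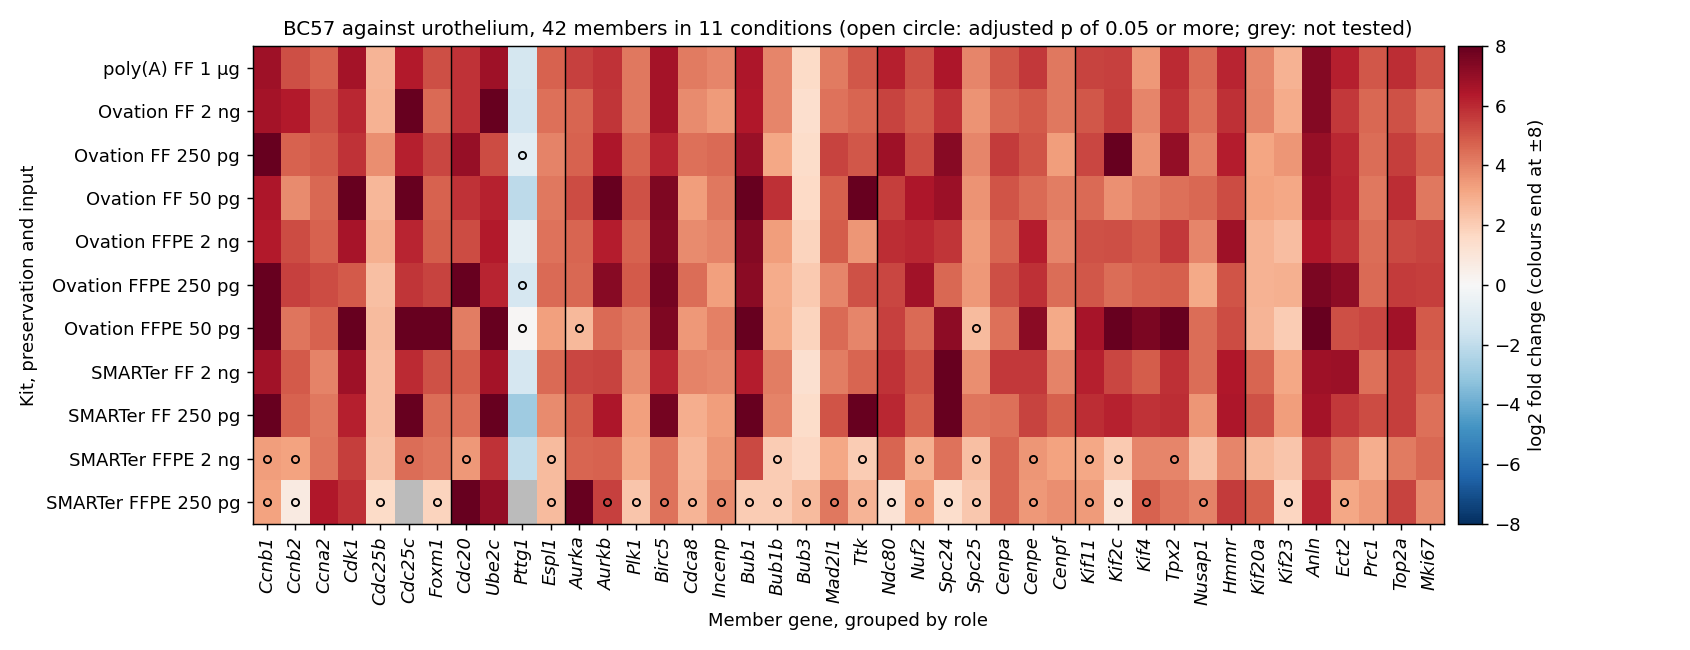
Fitted log2 fold change, BC57 over MNU, of the 42 members (columns, by role) in the 11 conditions (rows); open circles mark values that did not pass and grey marks members not tested. Values that did not pass are most frequent in the SMARTer FFPE rows, and Pttg1 is the column with values below 0. The highest fitted value is 7.36 in poly(A) and reaches 12.36 in Ovation FFPE at 250 pg. Fitted values against MNU groups without a count are not bounds.

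Of the 42 members, 39 were higher in all 9 conditions other than SMARTer FFPE. The exceptions were Pttg1, Aurka and Spc25. How many of all genes were higher in all 9 or all 11 conditions was not counted. In Ovation FFPE at 50 pg, the smallest share of the 9, 14.7% of all genes tested were higher. The conditions all compare the same cell line with MNU and are not independent. Aurka (2.61, edgeR adjusted p = 0.0598) and Spc25 (2.56, edgeR adjusted p = 0.0945) did not pass in Ovation FFPE at 50 pg, although their libraries did not overlap. Over all genes, 3.8% of those tested were higher in SMARTer FFPE at 250 pg, the smallest share of the 11 conditions. In all 11 conditions 11 members were higher: Ccna2, Cdk1, Ube2c, Cenpa, Cenpf, Hmmr, Kif20a, Anln, Prc1, Top2a and Mki67. For some of them the SMARTer FFPE calls depend on single libraries. At 250 pg Cdk1 and Cenpa no longer passed by limma, and these 2 and Mki67 no longer passed without any 1 of the libraries other than MNU library 3, and Ube2c without MNU library 1. At 2 ng Anln and Top2a no longer passed without library 1 or 2 of either sample, and Cenpa without BC57 library 1 or 2 or MNU library 2. The direction was the same in each case.

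Pttg1 was lower in 7 of the 10 conditions in which it was tested, and 2 of these calls depend on the processing. In SMARTer FFPE at 2 ng it no longer passed with no filter, by limma, when thinned, or without library 1 or 2 of either sample, and in Ovation FF at 50 pg it no longer passed without BC57 library 1 or MNU library 1 or 2. In Ovation FF at 2 ng it stood at 12.2, 10.6 and 7.06 CPM in BC57 and at 29.3, 32.4 and 22.3 CPM in MNU (-1.53, SE 0.232, edgeR adjusted p = 2.49e-07), with no overlap. In SMARTer FF at 250 pg it stood at 0.827, 1.54 and 2.86 CPM against 12.9, 11.2 and 12.8 CPM (-2.82, SE 0.657, edgeR adjusted p = 0.00357). In Ovation FFPE at 50 pg the BC57 values were 9.48, 0.441 and 41.4 CPM and the MNU values 6.699, 14.75 and 25.96 CPM, and the groups overlapped (0.11, SE 1.12, edgeR adjusted p = 0.956). In Ovation FF and FFPE at 250 pg the changes of -0.86 and -1.33 did not pass (edgeR adjusted p = 0.121 and 0.0541). Bub3 and Cdc25b, the members next lowest in poly(A), were higher in 10 of the 11 conditions each; in SMARTer FFPE at 250 pg their changes of 2.53 and 1.55 did not pass.

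Fixation was compared within BC57 at matched kit and input. With Ovation at 2 ng 22 members were lower and 2 higher in FFPE than in FF (all genes 15.6% lower and 16.6% higher), with a member median of -0.27 against 0.00 for all genes. With SMARTer at 2 ng 11 were lower and 1 higher (8.57% and 9.25%), or 16 and 2 with the replicate number as a block, and with Ovation at 250 pg 7 were lower and 2 higher (6.64% and 8.64%). By role, Ovation at 2 ng showed 4 of 5 cytokinesis genes, 4 of 6 spindle genes and 3 of 5 checkpoint genes lower. In SMARTer at 250 pg no member passed by edgeR (0.638% lower and 1.57% higher; 10 members at the unadjusted p of 0.05, 7 by DESeq2, 0 by limma), and neither did any in Ovation at 50 pg (1.41% and 2.56%; 9 unadjusted, 3 by DESeq2, 0 by limma).

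Hmmr, Kif20a and Nuf2 were lower in FFPE in all 3 comparisons with calls. Kif20a, a kinesin of the central spindle, stood at 152, 141 and 145 CPM in FFPE and at 262, 268 and 259 CPM in FF with Ovation at 2 ng, without overlap (-0.70, SE 0.0724, edgeR adjusted p = 2.21e-09). It changed by -0.41 with SMARTer at 2 ng and by -0.49 with Ovation at 250 pg (edgeR adjusted p = 0.0202 and 0.00347). Nuf2, a subunit of the Ndc80 complex, changed by -0.64, -0.58 and -0.79, and Hmmr, a spindle microtubule protein, by -0.28, -0.39 and -0.39. Nuf2 no longer passed by limma in the last 2 comparisons, nor without FF library 1 or 2 in the SMARTer one and without FF library 2 or 3 or FFPE library 2 in Ovation at 250 pg. Of the 22 and 11 members lower in the 2 comparisons at 2 ng, 8 were shared, and all 7 of Ovation at 250 pg were among the 22. The overlap of calls over all genes was not counted, so the overlap of the members cannot be set against it. The 3 comparisons share no libraries, but all use the same BC57 pellet and the same difference in extraction kit between FF and FFPE. They are therefore not independent.

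Mki67 was the member called higher in FFPE in all 3 by edgeR. It stood at 677, 673 and 688 CPM in FFPE and at 651, 641 and 644 CPM in FF with Ovation at 2 ng (0.22, SE 0.0559, edgeR adjusted p = 0.00231), with no overlap, and at 989, 1073 and 888 CPM against 724, 753 and 872 CPM with SMARTer at 2 ng (0.34, edgeR adjusted p = 0.0411). The centromeric histone gene Cenpa was higher in both Ovation comparisons, by 0.38 and 0.40. The Mki67 call at SMARTer 2 ng was lost with no filter, by limma and without library 1 or 2 of FF or FFPE, and at Ovation 250 pg without FF library 1 or 2 or FFPE library 1 or 3. The Cenpa call at Ovation 250 pg was lost with no filter and without any 1 of the libraries except FFPE library 3. Top2a, in contrast, was lower with Ovation at 2 ng, at 509, 498 and 540 CPM against 693, 632 and 752 CPM (-0.28, edgeR adjusted p = 0.000796). These changes are small beside those between BC57 and MNU.

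In BC57 the scale changed how many members lay below 0 for fixation, most of all with Ovation at 2 ng. On TMM scaling 33 of 42 members were below 0 there, on plain totals 39, and on the authors' deposited log2 values 21, or 33 after subtraction of the shift of all genes of 0.27. In the other BC57 comparisons most members were below 0 on all 3 scales. In the same order of scales they were 35, 36 and 25 with SMARTer at 2 ng and 37, 39 and 32 with Ovation at 250 pg. They were 25, 28 and 28 of 41 with SMARTer at 250 pg and 29, 37 and 29 with Ovation at 50 pg. With the deposited log2 values (limma), 87.6% of the genes called with Ovation at 2 ng were higher in FFPE, against 51.6% with TMM, and 8 members were higher and 3 lower. The corresponding shares were 97.9% against 51.9% with SMARTer at 2 ng, 71.4% against 56.6% with Ovation at 250 pg, 53.8% against 71.1% with SMARTer at 250 pg, 78.0% against 64.5% with Ovation at 50 pg, and 71.1% against 51.9% for MNU with Ovation at 2 ng. Leaving out libraries moved the counts too, to 2 without FF library 2 and 4 without FF library 1 or 3 for SMARTer at 2 ng, and to 3 without FF library 2 and 4 without FF library 1 or 3 for Ovation at 250 pg.

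In MNU few members were abundant enough to test for fixation. With Ovation at 2 ng 21 were tested, and 4 were lower and 1 higher (all genes 17.9% and 19.3%). Mki67 stood at 19.3, 16.1 and 15.8 CPM in FFPE and at 41.2, 30.9 and 25.7 CPM in FF, without overlap (-0.89, SE 0.204, edgeR adjusted p = 0.000321), the opposite direction to BC57. The kinesin gene Kif4 changed by -1.33, Incenp by -0.92 and Bub3 by -0.38, and Kif20a was higher by 0.57 although its libraries overlapped. The calls of Kif4, Incenp, Bub3 and Kif20a were lost by the DESeq2 test and without FF library 2. All of these but that of Kif20a were also lost by limma. Cell type markers moved in the same libraries: 7 of 9 urothelial markers tested were lower in FFPE and none higher, with sums of 4591 to 4765 CPM against 6192 to 6636 CPM in FF, and 4 of 7 fibroblast markers were higher and 2 lower, with sums of 13364 to 13680 CPM against 9926 to 10581 CPM. Their part in these member changes, and in the interaction built on them, was not tested. The count of members was 2 without any 1 of the FF libraries. With SMARTer at 2 ng 28 were tested and none passed by edgeR (0.551% lower and 1.32% higher; 4 at the unadjusted p, 3 by DESeq2, 0 by limma), and without the third FFPE library 1 was higher and 3 lower.

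The difference between the samples in the effect of fixation was tested as an interaction with Ovation at 2 ng. For Mki67 the fixation effect was 1.08 higher on the log2 scale in BC57 than in MNU (SE 0.172, edgeR adjusted p = 7.86e-06), and for Kif20a it was -1.29 (SE 0.207, edgeR adjusted p = 1.05e-05). These were the 2 of 42 members that passed (all genes 4.26% higher and 1.64% lower). The interaction uses the same libraries as the fixation comparisons, and among genes called 72.2% were higher by TMM and 88.0% with the deposited log2 values.

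No member was called between RNA inputs by edgeR in BC57, in tests that called almost no gene at all, so small effects could be missed. Between 50 pg and 2 ng with Ovation, none of the 42 members passed by edgeR in FF (all genes 0.0266% higher and 0% lower; 3 members at the unadjusted p, 0 by DESeq2 or limma) or in FFPE (0% and 0%; 6 unadjusted, 0 by DESeq2, 10 lower by limma on the deposited log2 values, where all genes shift by -0.61). Between 250 pg and 2 ng with SMARTer FF none passed either (0% and 0%; 3 unadjusted, 0 by DESeq2 or limma). Log2 changes of the members ran from -0.79 to 0.39 in Ovation FF and from -0.44 to 0.92 in Ovation FFPE. In SMARTer FF they ran from -1.73 to 0.24. The spread between libraries did widen: the median coefficient of variation of a member was 8.32%, 9.77% and 12.3% at 2 ng, 250 pg and 50 pg in Ovation FF, 7.77%, 13.5% and 18.7% in Ovation FFPE, 6.46% and 12.1% in SMARTer FF and 11.2% and 21.7% in SMARTer FFPE. Ndc80, for example, stood at 37.47, 44.47 and 40.02 CPM in the Ovation FFPE libraries at 2 ng and at 22.3, 80.2 and 24.8 CPM at 50 pg. Pttg1 had the widest spread of the members at 50 pg FFPE, with a coefficient of variation of 126%.

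Kits were compared on frozen BC57 RNA. Against poly(A), Ovation at 2 ng gave higher levels of 21 members and lower levels of 5 (all genes 30.3% and 29.6%), and SMARTer at 2 ng higher levels of 22 and lower levels of 11 (29.5% and 27.9%). Between SMARTer and Ovation at 2 ng, 16 members were higher and 13 lower in SMARTer (26.7% and 26.2%). Mki67 had the largest positive change in Ovation, at 651, 641 and 644 CPM against 375.3, 392.4 and 382.7 CPM in poly(A) (0.93, SE 0.0399, edgeR adjusted p = 1.37e-16). In SMARTer the largest was that of Cenpf, a large kinetochore protein gene, at 249.4, 261.5 and 260.6 CPM against 113.6, 115.8 and 111.0 CPM (1.73, SE 0.0524, edgeR adjusted p = 4.16e-12), followed by Mki67 (1.58) and Cenpe, the kinetochore kinesin gene (1.42). The libraries of the kits did not overlap for Cenpf and Mki67.

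The members lowest in the low-input kits differed in part by kit, with Cdc20 among the 3 lowest in both. In Ovation the kinetochore gene Spc24 stood at 18.3, 23.1 and 25.2 CPM against 69.5, 65.8 and 66.6 CPM in poly(A) (-1.43, SE 0.112, edgeR adjusted p = 3.11e-11), followed by Bub1b (-0.58). Cdc20 came next, at 69.04 ± 10.6 CPM in Ovation against 116.5 ± 2.14 CPM in poly(A). In SMARTer the lowest were the checkpoint genes Mad2l1 (-0.91) and Bub3 (-0.70) and the anaphase activator gene Cdc20 (-0.66). Between the low-input kits Spc24 was higher in SMARTer by 1.68, and Incenp by 1.03, while Mad2l1 (-1.31), Ect2, the exchange factor of cytokinesis (-1.12), and Bub1 (-0.99) were lower. By role, 6 of 7 kinetochore genes were higher in SMARTer than in poly(A) and 3 of 5 checkpoint genes lower, and against Ovation 4 of 5 checkpoint genes were lower in SMARTer.

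These splits depend on the scale. The log2 change of plain totals is -0.18, -0.55 and -0.36 from that of TMM in the 3 kit comparisons, and on plain totals 21, 8 and 9 of the 42 members were above 0, against 27, 26 and 21 with TMM. With the deposited log2 values, 13.4%, 22.8% and 73.9% of the genes called were higher, against 50.6%, 51.4% and 50.4% with TMM, and the members called were 2 higher and 27 lower, 5 and 13, and 17 and 5. The median of all genes moved by -0.57, -0.34 and 0.25 on that scale, and after its subtraction 32, 27 and 21 members were above 0. Ccnb1, Cenpa, Top2a, Bub3 and Pttg1 have opposite signs on the 2 scales in Ovation against poly(A).

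Transcript length moved with the kit differences. Across the 42 members Spearman's rho between principal transcript length and log2 fold change was 0.43 for Ovation against poly(A), 0.26 for SMARTer against poly(A) and 0.09 for SMARTer against Ovation. Over all 10231, 10090 and 9929 genes with a length it was 0.39, 0.30 and -0.11. These are descriptions across genes of the same libraries, and the part of length in the kit differences was not tested. The 5 longest members (Espl1, Mad2l1, Cenpe, Mki67 and Cenpf, 6658 to 11130 bases) had a median of 0.73 in Ovation and 1.42 in SMARTer against poly(A), and the 5 shortest (Birc5, Pttg1, Ube2c, Spc25 and Spc24, 947 to 1366 bases) 0.04 and 0.27. Mad2l1, at 7557 bases, departs from this order, with 0.39 in Ovation and -0.91 in SMARTer. Anln, Top2a and Mki67 took 28.9% to 30.4% of the members' counts in Ovation FF at 2 ng, 31.9% to 34.1% in SMARTer FF and 35.8% to 37.7% in SMARTer FFPE at 2 ng.

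Whether the kit effect differed between BC57 and MNU was tested as an interaction, which shares its libraries with the kit and sample comparisons. For Ovation at 2 ng against poly(A), 3 members had a higher kit effect in BC57 (Kif4 0.72, Ccna2 0.67 and Kif23 0.44) and 2 a lower one (Top2a -0.58 and Mki67 -0.56; all genes 6.71% and 1.61%). For the last pair the difference between Ovation and poly(A) was larger in MNU: Mki67 stood there at 32.6 ± 7.88 and 12.6 ± 0.926 CPM, and in BC57 at 645 ± 4.98 and 383 ± 8.59 CPM. For SMARTer at 2 ng 5 were higher (Kif4 1.67, Kif11 1.03, Kif20a 0.96, Cenpa 0.93 and Kif23 0.57) and 1 lower (Ccna2 -0.52; all genes 7.23% and 1.21%). Kif4 stood at 10.6 ± 0.469 CPM in poly(A) and 2.98 ± 1.24 CPM in SMARTer in MNU, and at 105 ± 2.52 and 87.6 ± 6.23 CPM in BC57. Kif4, Kif20a and Ccna2 each share exon bases with an antisense gene.

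Among genes called in these interactions, the share that was higher was 80.7% by TMM, 49% by DESeq2 size factors and 10.0% with the deposited log2 values for Ovation. For SMARTer it was 85.7%, 55.2% and 47.3%. With DESeq2 size factors 2 members were called for Ovation, both lower, and 3 for SMARTer. The Ovation count ran from 0 without MNU Ovation library 1 to 8 without BC57 Ovation library 1, with 2 or 3 without any 1 of the poly(A) libraries, and the SMARTer count was 3 without MNU poly(A) library 3.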

How the data were processed

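RNA sequencing counts of 66 libraries were used. Reads of 100 nt were processed with STAR, SAMtools and featureCounts on mm10, per the submitters' processing notes. No source used here states the versions, the annotation or whether counting used strand. The deposited tables hold raw counts per gene made by the authors from these reads, and a companion log2 value. The deposited log2 values equal the log2 of the count times 1000 over the upper quartile of nonzero counts, plus 1, recomputed here within 5.33e-14. Of 39179 Ensembl identifiers, 37693 matched GENCODE M21.

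Groups were compared with edgeR 4.0.16 (quasi-likelihood test, TMM scaling, filterByExpr with a minimum count of 10 and total of 15, prior count 0.125) in R 4.3.3, on the libraries of the groups compared. Benjamini-Hochberg adjustment ran over all genes tested, and an adjusted p under 0.05 was a call. All p-values printed without another tool's name are edgeR's. Interactions were fitted over the 4 groups concerned. The fits were tested on simulated counts. Floors are 3 counts over a group and intervals are exact at 95%. Lengths are those of the longest principal transcript in GENCODE M21. Alternatives were DESeq2 size factors, the DESeq2 1.42.0 test, limma 3.58.1 on the deposited log2 values, no filter on low counts, thinning to the smallest library, a replicate block, leaving out each library, and leaving out the third SMARTer FFPE libraries.

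The members, lists and tests were chosen with earlier results of these data known. Any member could be named; Ccnb1, Cdk1, Top2a, Mki67, Ndc80, Cenpa, Birc5, Bub3, Cdc25b and Pttg1 were followed throughout. Also named were the largest and smallest change of each role in poly(A), the 3 largest and smallest changes in other comparisons, and the 2 largest and smallest of each other list.

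Replicate numbers in the labels recur across groups. Same-numbered libraries deviated together (every r over 0.1) in 3 comparisons: BC57 against MNU with SMARTer at 2 ng in FF (r of 0.143, 0.189 and 0.248) and in FFPE (0.148, 0.177 and 0.210), and FFPE against FF in BC57 with SMARTer at 2 ng (0.289, 0.267 and 0.349). The pairing comes from these correlations and not from a stated shared animal or day. Repeat libraries differed beyond sampling noise in every group (chi-square per degree of freedom of at least 1.498).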

Additional observations from a re-analysis of the deposited data

Results flagged for a closer look

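Some members differed between BC57 and MNU in the effect of fixation or kit by a test of the difference itself (edgeR interaction, adjusted p under 0.05). For fixation with Ovation at 2 ng these were 2 members, Kif20a (-1.29) and Mki67 (1.08), as log2 differences of BC57 less MNU, beside 4.26% of all genes higher and 1.64% lower. For Ovation at 2 ng against poly(A) they were 5, namely Top2a (-0.58), Mki67 (-0.56), Kif23 (0.44), Ccna2 (0.67) and Kif4 (0.72), beside 6.71% of all genes higher and 1.61% lower. For SMARTer at 2 ng against poly(A) they were 6, among them Ccna2 (-0.52), Kif20a (0.96), Kif11 (1.03) and Kif4 (1.67), beside 7.23% and 1.21%. The fixation count of 2 of 42 is no larger a share than that of all genes. Ccna2 has opposite signs in the last 2 sets, which share the poly(A) libraries. The MNU groups have few counts for several of these genes: Kif4 had 38 counts in Ovation and 50 in SMARTer at 2 ng, and Kif11 had 32 in SMARTer.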

How the results depend on the processing

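The count of members higher in BC57 was 41 under each left-out library in poly(A), in Ovation at 2 ng in FF and FFPE, at 50 pg in FF and 250 pg in FFPE, and in SMARTer FF, and it was 40 to 41 in Ovation FF at 250 pg and 36 to 39 in Ovation FFPE at 50 pg. In SMARTer FFPE it ran from 9 to 41 at 2 ng and from 5 to 38 at 250 pg, where it was 27 with no filter and 34 without the third libraries. Shares of all genes in these alternative fits are not given here.

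For fixation, limma on the deposited log2 values called 11 members in BC57 with Ovation at 2 ng, 0 with SMARTer at 2 ng, 3 with Ovation at 250 pg and 2 in MNU with Ovation; the DESeq2 test called 7 in BC57 with SMARTer at 250 pg, 3 with Ovation at 50 pg, and 2 and 3 in MNU with Ovation and SMARTer. Thinning gave 6 and 1 in BC57 with SMARTer at 2 ng and 250 pg and 2 in MNU with Ovation, no filter gave 2 in SMARTer at 250 pg, and without the third libraries 3 were called there and 4 in MNU with SMARTer. Leaving out single libraries gave 2 to 11 (SMARTer 2 ng), 3 to 8 (Ovation 250 pg), 0 to 3 (SMARTer 250 pg) and 0 to 1 (Ovation 50 pg) in BC57, and 2 to 6 (Ovation) and 0 to 4 (SMARTer) in MNU.

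On the deposited log2 values limma called 10 members between 50 pg and 2 ng in Ovation FFPE, 18 between SMARTer and poly(A), and 0 in the sample by kit interaction with SMARTer. That interaction gave 3 with DESeq2 size factors, 2 when thinned and 3 to 6 with single libraries left out; for Ovation it gave 2 with DESeq2 size factors, 2 by the DESeq2 test, 1 when thinned and 0 to 8. The sign turned on the deposited log2 scale for Ccnb1 in BC57 fixation with Ovation at 2 ng (0.0071), for Mki67 (-0.3478) and Top2a (-0.4658) between inputs in Ovation FFPE, and in Ovation against poly(A) for Bub3 (-0.5039), Ccnb1 (-0.3498), Cenpa (-0.5452), Pttg1 (-0.5538) and Top2a (-0.3186). The cause was not tested.

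With a replicate block the fixation calls in BC57 with SMARTer at 2 ng went from 12 to 18 (2 higher and 16 lower), and the members higher in SMARTer FFPE at 2 ng from 28 to 36. In the other comparisons the block moved no count by over 1.5 times.

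In MNU Ovation FFPE 29 to 30 of the 42 members had a count in a library at 50 pg and 39 to 40 at 2 ng. Total counts overlapped, at 2985318 to 4067831 and 2605346 to 3109965.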
